A study of Mus musculus with 2 samples.

Results

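The genes described are 7 transcription units of the distal part of the mouse HoxA cluster: the homeobox genes Hoxa9, Hoxa10, Hoxa11 and Hoxa13 and the long noncoding RNA genes Hoxa11os, Hottip and Evx1os. They were chosen by name, and all 7 were found by symbol and identifier among the 56982 features of both count tables. The tables come from droplet-based single-cell RNA sequencing of hindlimb cells of FVB mouse embryos at E11.5, the embryonic day, with 1 embryo and 1 library in each of 2 groups. The embryos carried reporters at H11, a transgene landing site, in which copies of the ZRS, the limb enhancer of Shh, drove mCherry or a green fluorescent protein (GFP in 1 genotype label and eGFP elsewhere). The genotype of the dual-enSERT-1 library is labelled H11_ZRS-mCherry/ZRS404G>A-GFP. For dual-enSERT-2 the label gives B-ZRS-mCherry at H11, then SI, then ZRS404G>A-eGFP-B, and it does not spell out B and SI. Both embryos carried both reporters, and there was no embryo without them. With 1 library in each group, the library, the embryo, the construct and the preparation cannot be told apart, and no test was made. All intervals are at 95% and cover counting error only.

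Hox genes encode transcription factors that give position along an axis, and genes of a cluster are turned on in the order in which they lie. In the limb bud, genes at the Hoxa13 end come on later and more distally: Hoxa9 and Hoxa10 act in the proximal segments, Hoxa11 is needed for the middle segment, the zeugopod, and Hoxa13 for the hand and foot plate, the autopod. Hoxa11os is transcribed from the opposite strand of Hoxa11 in the distal limb bud. Hottip, named for the HOXA distal tip, was described in human cells as an RNA that binds WDR5 and helps keep the distal HOXA genes active. Evx1os is transcribed opposite Evx1, the homeobox gene next to Hoxa13. Meis1 and Meis2, which encode partners of HOX proteins, mark the proximal limb bud, and Hoxd13 marks the autopod progenitors. Shh marks the zone of polarizing activity at the posterior margin.

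On GRCm39 the genes lie on chromosome 6 in the GENCODE M39 annotation. Hoxa9 (minus strand, chr6:52200080-52208069) lay 94 bases from Hoxa10 (minus, chr6:52208164-52217834), which lay 1239 bases from Hoxa11 (minus, chr6:52219074-52222806). Hoxa11os (plus, chr6:52220356-52226784) overlapped Hoxa11 over 2451 bases, 1010 of them exonic on both strands. Hoxa13 (minus, chr6:52234602-52237822) and Hottip (plus, chr6:52239760-52244588) were divergent, with starts 1938 bases apart. Evx1os (minus, chr6:52285374-52291878) overlapped Evx1 over 1396 bases, 498 of them exonic on both strands. Whether the authors' counting used strand or intronic reads is not stated in the labels or headers, and reads of these antisense pairs therefore cannot be told apart with certainty.

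**Figure D1:**
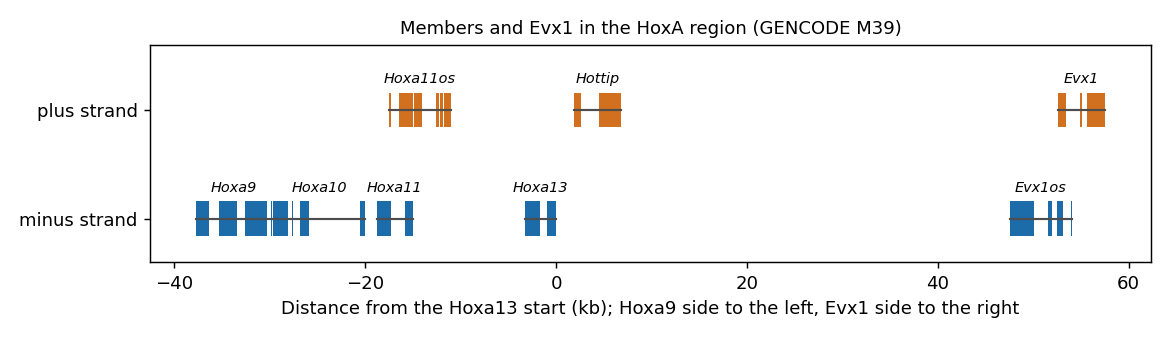
Map of the 7 genes and Evx1, with distance from the Hoxa13 start in kb on the x axis and the plus and minus strands on separate rows. Boxes are annotated exons and lines the gene spans. Hoxa11os lies across the start of Hoxa11, and Hottip and Hoxa13 point away from each other.

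The 250 bases upstream of the annotated starts of Hoxa11, Hoxa13, Hottip and Evx1os are given because Hoxa13, Hottip and Evx1os moved together across the cell groups and Hoxa11 did not. They were read from GRCm39, 5′ to 3′ on the strand of the gene, at chr6:52222807-52223056 for Hoxa11 (minus), chr6:52237823-52238072 for Hoxa13 (minus), chr6:52239510-52239759 for Hottip (plus) and chr6:52291879-52292128 for Evx1os (minus). Capitals mark a match to CAATAAA, a core bound by HOX13 proteins.
Hoxa11: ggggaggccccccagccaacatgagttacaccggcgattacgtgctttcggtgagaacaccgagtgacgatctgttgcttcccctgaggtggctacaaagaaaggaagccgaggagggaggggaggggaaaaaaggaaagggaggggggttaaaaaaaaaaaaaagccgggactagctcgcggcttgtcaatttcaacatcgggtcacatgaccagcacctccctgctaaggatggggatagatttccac
Hoxa13: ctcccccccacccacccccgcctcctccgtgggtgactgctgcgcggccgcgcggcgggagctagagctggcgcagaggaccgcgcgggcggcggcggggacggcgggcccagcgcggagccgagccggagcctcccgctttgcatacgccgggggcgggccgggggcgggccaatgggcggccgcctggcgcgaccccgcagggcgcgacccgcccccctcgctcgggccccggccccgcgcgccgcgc
Hottip: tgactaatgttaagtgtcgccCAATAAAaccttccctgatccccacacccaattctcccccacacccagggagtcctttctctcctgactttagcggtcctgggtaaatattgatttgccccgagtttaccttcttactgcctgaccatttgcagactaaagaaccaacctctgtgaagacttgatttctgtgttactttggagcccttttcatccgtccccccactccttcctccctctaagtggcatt
Evx1os: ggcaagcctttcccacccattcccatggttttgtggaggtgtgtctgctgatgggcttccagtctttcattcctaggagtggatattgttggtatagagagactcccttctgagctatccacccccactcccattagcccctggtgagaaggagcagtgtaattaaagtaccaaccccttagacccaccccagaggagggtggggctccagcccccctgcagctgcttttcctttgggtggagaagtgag
The Hoxa11 window lies inside the span of Hoxa11os and reaches into some of its exons, the Hottip window overlaps the small annotated RNA Gm56043, and the Evx1os window lies in an intron of Evx1. G and C made up 84.4% of the Hoxa13 window, against 54% for Hoxa11, 48.4% for Hottip and 54.4% for Evx1os. On either strand, CAATAAA was found in 1 of the 7 genes' windows, that of Hottip, and in 4.87% of 54652 windows of the same length over all genes. CGTAAA, another form bound by HOX13 proteins, was in none of the 7 and in 2.19% of all windows. TGACAG, the MEIS core, was in none of the 7 and in 16.7%. TATAAA was in 1 of the 7, the window of Hoxa10, and in 12.4%. A match describes these letters only.

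After filtering, the dual-enSERT-1 library kept 16041 cells and the dual-enSERT-2 library 6472, of 20508 and 8885 deposited barcodes, where the protocol aimed at 10000 cells. Median UMI counts (unique molecular identifiers, 1 for each captured RNA molecule) were 14000 and 25842. Mesenchyme made up 81.7% and 59.0% of cells and erythroid-like cells 1.53% and 25.3%. Every mesenchyme cluster had Prrx1, Prrx2, Twist1, Pdgfra and Col3a1 among its markers, and Pitx1 and Tbx4, which mark the hindlimb. The libraries shared 29 barcode sequences. Of the mesenchyme cells, 12796 and 3805 had a Prrx1 UMI, and 12695 and 3763 of these had at least 5000 UMIs.

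Levels are given as CPM, the share of a gene among the pooled UMIs of all cells in a class, scaled to 1000000 UMIs. The mesenchyme held all 7 genes. Values are dual-enSERT-1 first and dual-enSERT-2 second throughout. Hoxa9 stood at 160.8 CPM (159.1 to 162.6) and 167.3 CPM (164.8 to 169.7) in mesenchyme, and Hoxa10 at 287.7 and 298.1 CPM. Hoxa11 stood at 73.9 CPM (72.8 to 75.1) and 94.7 CPM (92.9 to 96.6). These 3 genes were close between the libraries. Hoxa13 stood at 83.9 CPM (82.7 to 85.2) and 26.5 CPM (25.5 to 27.5). Hottip stood at 8.97 and 1.38 CPM, and Evx1os at 23.9 and 5.22 CPM. Hoxa13 and the noncoding genes on its far side were thus lower in dual-enSERT-2, whereas Hoxa11os stood at 192.3 and 141.2 CPM.

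Detection was read after each cell was thinned to 5000 UMIs. Hoxa10 was detected in 71.0% and 75.0% of thinned mesenchyme cells and Hoxa9 in 50.7% and 55.8%. Hoxa11os was detected in 51.3% and 45.5%, and Hoxa11 in 27.0% and 34.9%. Hoxa13 was detected in 23.4% and 9.13%, Evx1os in 8.93% and 2.55% and Hottip in 3.62% and 0.584%. Before thinning, 38.9% and 25.7% of mesenchyme cells had a Hoxa13 UMI and 10.9% of the cells of dual-enSERT-1 a Hottip UMI. Erythroid-like cells, which should lack these genes, give the background of free RNA, at median depths of 19408 and 27306 UMIs against 14576 and 27318 in mesenchyme. Hoxa13 was detected in 0.813% and 0.306% of thinned erythroid-like cells, and Hoxa11 in 1.22% and 0.735%. Detection in mesenchyme was above this background for both genes.

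In the other classes the genes differed from each other. Hoxa9 was at least as high in ectoderm-like cells, the covering of the limb bud, as in mesenchyme, at 197 CPM (186.2 to 208.2) and 184 CPM (170.5 to 198.4). It was detected in 59.2% and 57.7% of them. Fgf8 marks the apical ectodermal ridge, the signalling rim of the bud, and Hoxa9 stood at 214.4 and 181 CPM in ectoderm-like cells with an Fgf8 UMI and at 188 and 187 CPM in those without. Its neighbour Hoxa10 stood at only 17.1 CPM (14.1 to 20.7) and 12.2 CPM (8.87 to 16.3) in the ectoderm-like cells, 16.8-fold and 24.5-fold lower than in mesenchyme. Hoxa11 stood there at 2.04 and 1.35 CPM and Hoxa13 at 2.99 and 0.270 CPM. No Hottip UMI was seen in 426 and 179 ectoderm-like cells, which allows up to 0.580 and 0.997 CPM. So of the 7 genes Hoxa9 alone kept its mesenchyme level in the ectoderm.

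Muscle-like cells, which migrate into the bud from the somites, carried Hoxa9 at 120.3 and 175.9 CPM, Hoxa10 at 130.7 and 227.4 CPM and Hoxa11 at 51.4 and 93.5 CPM. Hoxa11os stood in them at 80.0 and 157.1 CPM. Hoxa13 was lower, at 10.8 CPM (8.91 to 13) and 1.79 CPM (0.488 to 4.58), the latter from 4 UMIs in 68 cells. Across all genes of at least 20 CPM on either side, called here measured, a difference counts as called when its log2 ratio passes 1, with a pseudocount of 1 CPM. Between mesenchyme and muscle-like cells of dual-enSERT-1, 9.08% of measured genes were called. Of the 6 measured members 4 were higher in mesenchyme: Hoxa10, Hoxa13, Evx1os and Hoxa11os. In dual-enSERT-2 the background was 7.17%, and Hoxa13 was the 1 called of 5 measured. Hoxa13, and Evx1os where measured, passed 20 CPM in mesenchyme and not in muscle-like cells, so their calls are partly set by that filter. The muscle-like cells of dual-enSERT-2 thus carried Hoxa9, Hoxa10, Hoxa11 and Hoxa11os within 2-fold of mesenchyme.

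Endothelial-like cells carried Hoxa9 at 41.4 and 43.2 CPM and Hoxa10 at 31.1 and 34.6 CPM, both above the erythroid-like cells at 4.02 and 2.92 CPM for Hoxa9 and 5.83 and 4.66 CPM for Hoxa10. Hoxa11 stood in endothelial-like cells at 4.92 and 3.46 CPM and Hoxa13 at 3.34 and 0.432 CPM. Against endothelial-like cells all 6 and 5 measured members were higher in mesenchyme, where 28.2% and 26.1% of measured genes were called. Against ectoderm-like cells 5 of 6 and 4 of 5 were higher (15.4% and 15% of genes called), all but Hoxa9. Apart from Hoxa9 and Hoxa10 in endothelial-like cells, the called members were under 20 CPM in these classes and measured only through mesenchyme. The counts are thus partly set by that filter. Against erythroid-like cells 91.5% and 84.1% of all genes were called, so that the members' 6 of 6 and 5 of 5 say little about them. Macrophage-like cells, 60 and 53 in number, held 18.8 and 43.7 CPM of Hoxa9. They held Hoxa13 at 5.71 CPM (2.29 to 11.8) and 8.33 CPM (4.3 to 14.6), from 7 and 12 UMIs, and the interval of dual-enSERT-1 overlapped that of its erythroid-like cells.

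**Figure D2:**
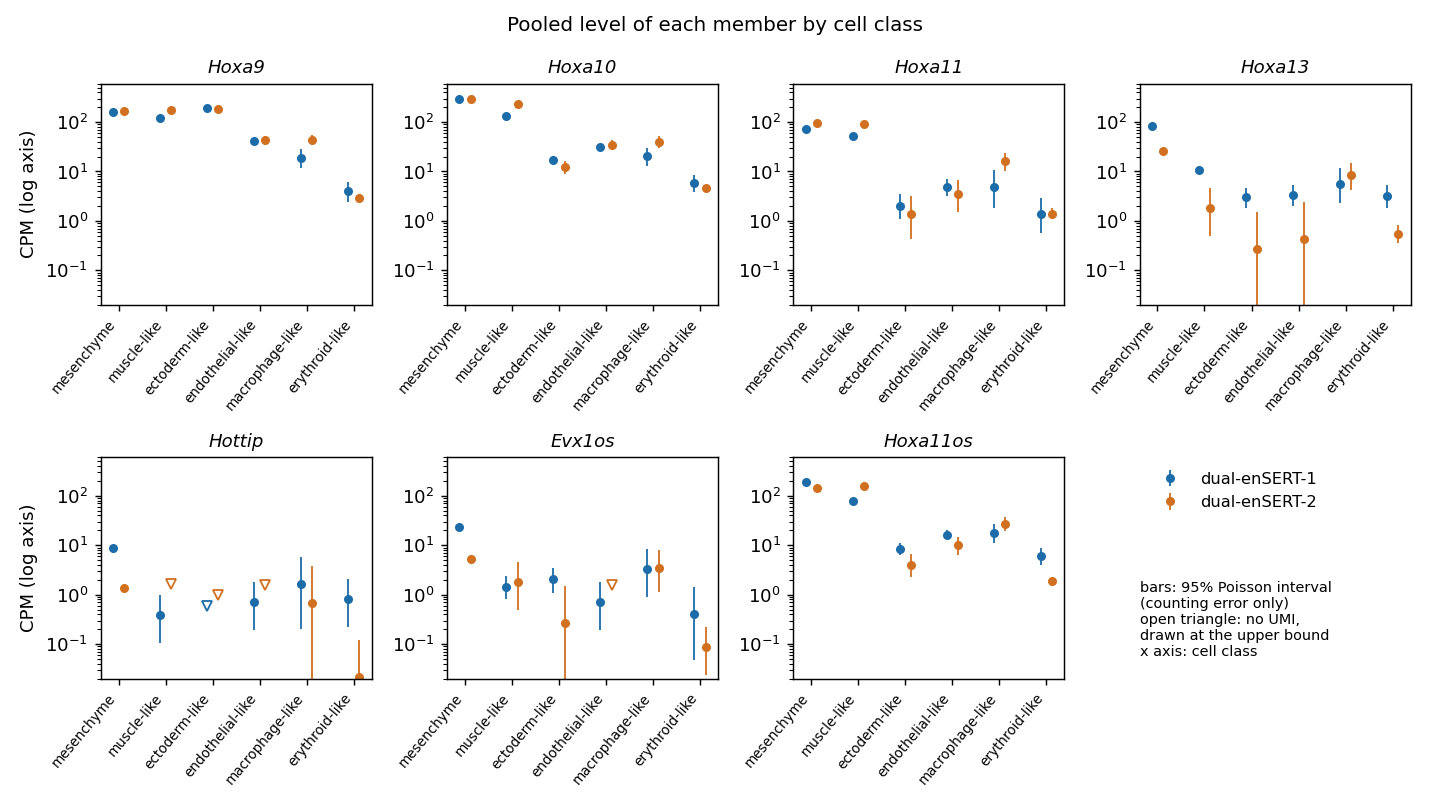
Pooled CPM (log axis) of each gene by cell class, 1 panel for each gene, with points for the libraries and bars for 95% Poisson intervals; open triangles mark the upper bound where no UMI was seen. Hoxa9 is level between mesenchyme and ectoderm-like cells, while the other genes drop in the ectoderm.

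Prrx1-positive mesenchyme was then divided by the UMIs of position markers in the thinned cell. Shh-positive cells had a Shh UMI. Of the others, Meis-only cells had a Meis1 or Meis2 UMI and no Hoxd13 UMI, and Hoxd13-only cells had a Hoxd13 UMI and no Meis UMI. Meis-only cells numbered 3373 (26.6%) and 1468 (39.01%), and Hoxd13-only cells 2261 (17.8%) and 241 (6.40%). Cells with both numbered 157 and 71, cells with neither 6613 and 1873, and Shh-positive cells 291 and 110. The dual-enSERT-2 library thus held a smaller share of Hoxd13-only cells. Median depths of the Meis-only, Hoxd13-only and Shh-positive cells were 12997, 17039 and 17675 UMIs in the first library and 26434, 29556 and 29960 UMIs in the second. None of the 7 genes entered these rules.

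Hoxa13, whose protein specifies the autopod, followed Hoxd13 in both libraries. In dual-enSERT-1 it stood at 11.3 CPM in Meis-only cells, 65.7 CPM in cells with neither marker, 103.2 CPM in cells with both, 195.9 CPM (191.6 to 200.2) in Hoxd13-only cells and 208.3 CPM (196.4 to 220.7) in Shh-positive cells. In dual-enSERT-2 the same order of the first 4 groups held at lower levels, with 4.79, 28.1, 35.5 and 100.7 CPM (93.7 to 108.2), and the Shh-positive cells stood at 92.3 CPM. The Hoxd13-only and Shh-positive cells overlapped in their intervals in each library. Hoxd13-only over Meis-only, the log2 ratio of Hoxa13 was 4.01 (3.88 to 4.13, 17.4-fold) and 4.14 (3.91 to 4.37, 21.0-fold). The Hoxa13 level differed between the libraries, and its fold between distal and proximal cells differed little.

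The noncoding genes on the far side of Hoxa13 were likewise higher in Hoxd13-only than in Meis-only cells. Hottip rose from 1.01 CPM in Meis-only cells to 23.6 CPM (22.2 to 25.1) in Hoxd13-only and 24.5 CPM in Shh-positive cells of dual-enSERT-1, and stood at 5.86 CPM in cells with neither marker. In dual-enSERT-2 it stood at 0.172, 6.73, 7.31 and 1.10 CPM in these groups, under the 20 CPM needed to count as measured. Evx1os stood at 1.89 and 0.712 CPM in Meis-only cells and at 62.2 CPM (59.8 to 64.6) and 21.3 CPM in Hoxd13-only cells, a log2 ratio of 4.45 (32.9-fold) and 3.7 (29.8-fold). In Shh-positive cells it stood at 69.0 CPM, and at 11.3 CPM (7.93 to 15.5) in dual-enSERT-2, below the Hoxd13-only cells of that library (18.1 to 24.8). Their share of detected cells remained low even where they were highest: at 5000 UMIs Hottip was seen in 10.7% and 4.15% of Hoxd13-only cells and Evx1os in 26.2% and 10.8%.

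Hoxa9 and Hoxa10 hardly differed along this axis. Hoxa9 stood at 143.6 and 168.2 CPM in Meis-only cells and 149.7 and 141.6 CPM in Hoxd13-only cells (log2 ratio 0.06 and -0.25). It was lowest in Shh-positive cells at 134.2 and 117.6 CPM. Hoxa10 stood at 274.3 and 282 CPM in Meis-only and 260.4 and 295.4 CPM in Hoxd13-only cells (-0.07 and 0.07). Across the 5 groups Hoxa10 stayed between 260.4 and 312.6 CPM in both libraries.

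Hoxa11, the zeugopod gene, was past a log2 ratio of 1 between these groups in dual-enSERT-1 and within it in the other library. In dual-enSERT-1 it was highest in cells with neither marker at 100.1 CPM (98.2 to 102.1), stood at 67.7 CPM (65.4 to 70.1) in Meis-only cells, and was lowest in Hoxd13-only cells at 27.2 CPM (25.6 to 28.8) and Shh-positive cells at 31.4 CPM (26.9 to 36.5). In dual-enSERT-2 it was again highest in cells with neither marker, at 109.9 CPM, but stood at 87.7 CPM (81.1 to 94.7) in Hoxd13-only and 86.5 CPM in Shh-positive cells, above the Meis-only cells at 76.5 CPM (73.9 to 79.3). The log2 ratio of Hoxd13-only over Meis-only was -1.29 (-1.38 to -1.19) and 0.19 (0.07 to 0.32). Hoxa11 was detected in 11.4% and 31.1% of Hoxd13-only cells and in 24.4% and 29.4% of Meis-only cells. The proximal levels were thus near each other and the distal ones were 3.23-fold apart (2.92 to 3.56). Hoxd13 itself, which set the group, stood at 271.6 CPM in the Hoxd13-only cells of dual-enSERT-1 and at 158.3 CPM in those of dual-enSERT-2, and Meis2 at 3.22 and 13.8 CPM. The part of this difference in the makeup of the group was not tested. With Meis1 alone as the proximal marker the ratio of dual-enSERT-1 was -0.94, short of 1, and with detection at 2 UMIs that of dual-enSERT-2 was -0.08.

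Hoxa11os, the antisense gene of Hoxa11, was higher in Hoxd13-only than in Meis-only cells of both libraries. It stood at 81.8 and 86.4 CPM in Meis-only cells and at 255.3 CPM (250.4 to 260.2) and 205 CPM in Hoxd13-only cells, 3.12-fold and 2.37-fold higher (log2 ratio 1.63 and 1.24). Cells with neither marker stood between at 217.7 and 170.8 CPM. The antisense share of all Hoxa11 and Hoxa11os UMIs rose from 54.7% (53.6 to 55.9) in Meis-only cells to 68.5% in cells with neither marker and 90.4% (89.8 to 90.9) in Hoxd13-only cells of dual-enSERT-1. In dual-enSERT-2 it rose from 53.0% (51.8 to 54.2) to 60.9% and 70.0% (68.1 to 72.0). Shh-positive cells stood at 90.0% and 68.0%. The share compares cells and not the abundance of the transcripts, whose lengths and capture differ. The order of the 3 groups was the same in both libraries, and the range was wider in dual-enSERT-1.

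Counted over the 7 genes, 4 rose by more than 1 on the log2 scale in Hoxd13-only over Meis-only cells of dual-enSERT-1 (Hoxa13, Hottip, Evx1os and Hoxa11os) and 1 was lower (Hoxa11), of 7 measured, where 6.26% of all measured genes were called, 2.21% higher and 4.05% lower. The median log2 ratio of the members was 1.63 and that of all genes 0.03. In dual-enSERT-2, 3 of 6 measured members were higher (Hoxa13, Evx1os and Hoxa11os) and none lower, against 2.85% of genes called, 1.22% higher and 1.63% lower. The medians were 0.72 and 0.003. Where they were measured, Hoxa13, Hottip and Evx1os reached 20 CPM in the Hoxd13-only cells and not in the Meis-only cells, so the counts and medians are partly set by that filter. Cells with both markers over Meis-only cells had 3 of 6 measured members called, all higher, in dual-enSERT-1 (Hoxa13, Evx1os and Hoxa11os) and 1 of 5, Hoxa13, in dual-enSERT-2, where 1.75% and 0.942% of genes were called. Hoxa13 and Evx1os were under 20 CPM in the Meis-only cells, so these counts too are partly set by the filter. Shh-positive over Hoxd13-only cells, none of the 7 and 6 measured members was called, where 1.4% and 1.63% of genes were. Hoxa13 stood at a log2 ratio of 0.09 and -0.12 there and Hoxa11 at 0.20 and -0.02.

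**Figure D3:**
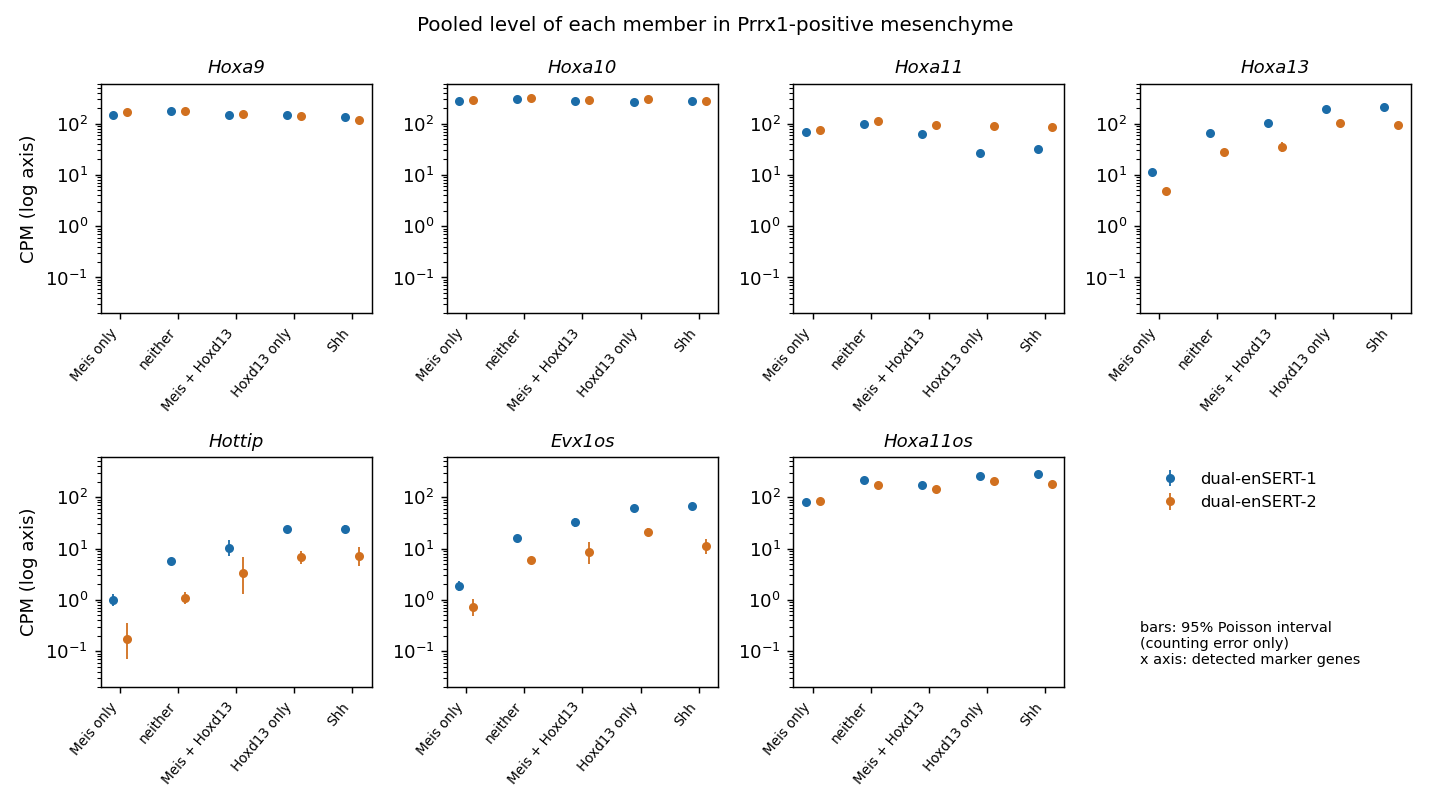
Pooled CPM (log axis) of each gene in 5 groups of Prrx1-positive mesenchyme, with points for the libraries and bars for 95% Poisson intervals. Hoxa13, Hottip and Evx1os climb from Meis-only to Hoxd13-only cells in both libraries, Hoxa9 and Hoxa10 are flat, and Hoxa11 drops in Hoxd13-only cells of dual-enSERT-1, at 27.2 CPM, and not of dual-enSERT-2, at 87.7 CPM.

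The domains of Hoxa11 and Hoxa13 are known to separate as the autopod forms, and their joint detection in single cells was counted. In dual-enSERT-1, 484 of 12695 thinned cells held both (3.81%), against 6.42% if the 2 genes were independent. The observed over expected share was 0.594 (0.543 to 0.649). Hoxa11 was detected in 16.3% (14.9 to 17.6) of cells with Hoxa13 and in 30.8% (29.8 to 31.7) of cells without it. In dual-enSERT-2, 128 of 3763 cells held both (3.40%, against 3.18% expected), a ratio of 1.07 (0.896 to 1.27), and Hoxa11 was detected in 37.4% of cells with Hoxa13 and 34.7% without. The pair was thus seen together less than independence gives in dual-enSERT-1, and the interval of dual-enSERT-2 included independence. Erythroid-like cells held both in 0 of 246 and 0 of 1633 cells, which allows up to 1.49% and 0.226%.

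The pairing depended on the group. Within Meis-only cells the observed over expected share was 1.19 (0.836 to 1.65) and 1.77 (0.918 to 3.09). Within cells of neither marker it was 0.647 (0.578 to 0.723) and 1.01 (0.800 to 1.26). Within Hoxd13-only cells it was 0.804 (0.669 to 0.957) and 0.756 (0.469 to 1.14), and within Shh-positive cells 0.977 and 1.17. The Hoxd13-only values of the libraries were near each other, with 85 Hoxa13-detected cells in dual-enSERT-2. The counts behind the wide intervals were 36 and 12 cells with both genes in Meis-only and 20 in the Hoxd13-only cells of dual-enSERT-2.

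Other pairs went together in both libraries. Hottip with Hoxa13 was seen at 2.62 (2.33 to 2.94) and 5.50 times the independent share, the latter (2.75 to 9.83) from 11 cells. Evx1os with Hoxa13 was at 2.61 and 3.13 times and Hoxd13 with Hoxa13 at 2.41 and 3.28 times. Hoxa11os with Hoxa13 was at 1.34 (1.29 to 1.40) and 1.34 times. These ratios pool proximal and distal cells. Within Hoxd13-only cells Hottip with Hoxa13 was at 1.11 (0.949 to 1.29) and 1.42 (0.463 to 3.26). Evx1os was at 1.11 (1.005 to 1.21) and 1.09 there, and Hoxa11os at 1.04 and 0.989. Within cells of neither marker Hottip stayed at 3.08 and 3.92 and Evx1os at 2.96 and 2.58. Hottip was detected in only 0.534% of the 1873 such cells of dual-enSERT-2, so its 3.92 rests on few cells. Hoxa10 with Hoxa13 was at 0.999 and 0.998 and Hoxa9 with Hoxa13 at 1.01 and 0.890. Hoxa11 with its antisense gene was at 1.19 (1.14 to 1.24) and 1.12, so that the sense and antisense RNAs were detected in the same cells somewhat more than independence gives. Within Hoxd13-only cells of dual-enSERT-1, where Hoxa11 was low, that ratio was 1.03 (0.893 to 1.19). Hoxa11 with Meis1 was at 0.795 and 0.729, below independence in both libraries.

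Levels followed the Hoxa13 count of the cell. In dual-enSERT-1, with 0, 1, 2 and 3 or more Hoxa13 UMIs in 9719, 1833, 786 and 357 thinned cells, Hoxa11 stood at 87.8, 45.5, 30.6 and 24.7 CPM (21.1 to 28.8). In dual-enSERT-2, with 0, 1 and 2 UMIs in 3421, 269 and 62 cells, it stood at 94.5, 97.5 and 97.4 CPM (83.7 to 112.7). Hoxa11 thus fell with each step in 1 library and was level in the other. Bins of equal count were not alike, as Hoxa13 stood at 179 and 117.1 CPM with 1 UMI and at 264.8 and 180.3 CPM with 2. A further 11 cells of dual-enSERT-2 with 3 or more held Hoxa11 at 87.0 CPM (59.1 to 123.5), a bin too thin to read. Cells with over cells without Hoxa13, the log2 ratio of Hoxa11 was -1.15 (-1.22 to -1.09) and 0.04 (-0.05 to 0.13). With called doublets kept that of dual-enSERT-1 was -0.98, short of 1.

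Hottip stood at 4.51, 18.6, 24.96 and 25.7 CPM over the 4 bins of dual-enSERT-1 and at 0.842, 5.36 and 8.61 CPM over the first 3 of dual-enSERT-2. Evx1os stood at 12.8, 48.2, 63.0 and 66.6 CPM and at 3.45, 20.2 and 24.2 CPM. Both noncoding genes rose most between the cells without Hoxa13 and those with 1 UMI. Hoxa11os rose from 172.1 to 257.7 CPM between 0 and 1 UMI in dual-enSERT-1 and from 134.4 to 204.6 CPM in dual-enSERT-2, and was then level. Hoxa9 and Hoxa10 stayed between 154.8 and 163.2 CPM and between 270.2 and 294.3 CPM over the bins of dual-enSERT-1. Besides Hoxa13, which set the split, Hottip and Evx1os were called higher and Hoxa11 lower in dual-enSERT-1, where 2.64% of genes were called, and Evx1os was called higher in dual-enSERT-2, where 1.53% were. Where they were measured, Hottip and Evx1os reached 20 CPM only in the cells with Hoxa13, so their calls are partly set by that filter.

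**Figure D4:**
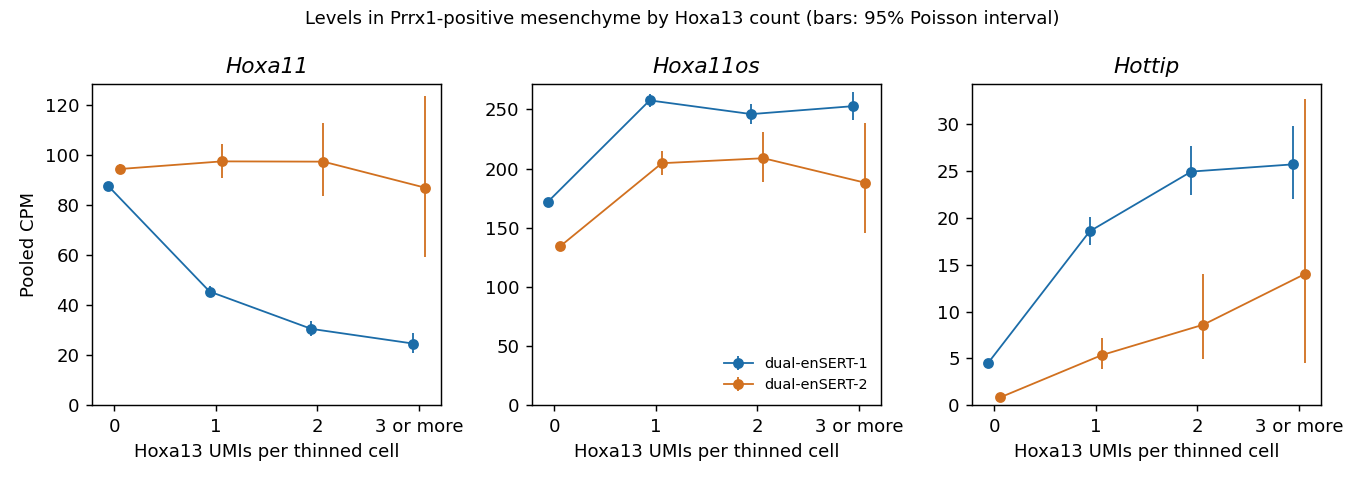
Pooled CPM of Hoxa11, Hoxa11os and Hottip (linear axes from 0) against the Hoxa13 UMIs of the thinned cell, with lines for the libraries and bars for 95% Poisson intervals. Hoxa11 falls from 87.8 to 24.7 CPM in dual-enSERT-1 and is level in dual-enSERT-2, whose last bin holds 11 cells.

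Turned around and binned by Hoxa11 UMIs, Hoxa10 and Hoxa9 rose with Hoxa11 in both libraries. From 0 to 3 or more Hoxa11 UMIs, Hoxa10 went from 266.2 to 432.1 CPM (413.1 to 451.7) in dual-enSERT-1 and from 286.6 to 363.5 CPM in dual-enSERT-2. Hoxa9 went from 153.2 to 201.1 CPM and from 164.1 to 190.1 CPM, and Hoxa11os from 180.2 to 290.2 CPM and from 128.3 to 200.4 CPM. Hoxa13 went from 98.4 down to 25.5 CPM (21.1 to 30.6) in dual-enSERT-1, whereas in dual-enSERT-2 it stood at 26.4 CPM without Hoxa11 and 38.9 CPM (30.4 to 49.0) in the 63 cells with most of it. The cells richest in Hoxa11 thus had the most Hoxa10, Hoxa9 and Hoxa11os in either library and the least Hoxa13 in dual-enSERT-1.

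Within the Hoxd13-only cells Hoxa11 was lower with more Hoxa13 in both libraries. With 0, 1 and 2 or more Hoxa13 UMIs it stood at 38.2 CPM (35.3 to 41.2), 22.9 CPM and 14.7 CPM (12.5 to 17.2) in dual-enSERT-1. In dual-enSERT-2 it stood at 97.9 CPM (89.2 to 107.3), 75.1 CPM (63.4 to 88.2) and 56.1 CPM (40.4 to 75.8), in 156, 60 and 25 cells. The log2 ratio of Hoxa13-detected over other Hoxd13-only cells was -0.94 and -0.48, short of 1, and besides Hoxa13 no member was called there (0.0989% and 0.215% of genes). Hoxa11os in the same bins stayed between 248.5 and 267.7 CPM and between 198.9 and 210.9 CPM. Within the Shh-positive cells Hoxa11 did not fall over these bins, at 34.2, 25.7 and 34.9 CPM in the first library and 82.2, 85.8 and 120.3 CPM in the second, whose last bin holds 9 cells. Within the Meis-only cells Hoxa11 did not fall with Hoxa13: it stood at 67.3 CPM without and 77.9 CPM (64.9 to 92.7) with 1 Hoxa13 UMI in dual-enSERT-1, and at 76.1 and 105.2 CPM (82.4 to 132.2, 21 cells) in dual-enSERT-2. Hoxa11os there was higher with Hoxa13, at 221.2 against 75.1 CPM and 134 against 85.5 CPM.

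Binned by Hoxd13 UMIs instead, Hoxa11 fell in both libraries, in dual-enSERT-2 only from 2 UMIs on. Bins of equal count were not alike, as Hoxd13 stood at 194.9 and 109.4 CPM with 1 UMI and at 315.1 and 226.6 CPM with 2. With 0, 1, 2 and 3 or more Hoxd13 UMIs Hoxa11 stood at 88.7, 37.5, 19.5 and 15.7 CPM (13.2 to 18.7) in dual-enSERT-1. In dual-enSERT-2 it stood at 95.6, 94.9 (88.2 to 101.8), 66.8 (55.6 to 79.4) and 47.9 CPM (33.2 to 67.0), with 263, 60 and 23 cells in the last 3 bins. Hoxa13 rose over these bins from 51.1 to 221.5 CPM in dual-enSERT-1 and from 19.5 to 148 CPM in dual-enSERT-2. The cells richest in Hoxd13 thus had the lowest Hoxa11 in either library, and dual-enSERT-2 had few of them.

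How evenly the UMIs of each gene fell over cells was also read. At equal depth the variance over the mean is 1 when every cell has the same level. Its excess over 1 also grows with the mean, so it does not rank genes of different level. In Prrx1-positive mesenchyme it was 1.62 and 1.38 for Hoxa13, 1.45 and 1.27 for Hoxa11os, 1.41 and 1.12 for Hoxa11, 1.31 and 1.10 for Hoxa10 and 1.28 and 1.08 for Hoxa9. Hottip stood at 1.14 and 0.994 and Evx1os at 1.29 and 1.15, at the lowest mean counts. Within Hoxd13-only cells the variance over the mean was 1.14 and 1.08 for Hoxa13. Its mean count was higher there (0.927 against 0.362 and 0.469 against 0.114 UMIs over all Prrx1-positive cells). The spread of Hoxa13 was thus smaller within that group. Hoxa11 stood at 1.28 and 1.26 there, at unlike mean counts of 0.138 and 0.44 UMIs.

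Clusters of mesenchyme cells, built without the 7 genes, the reporters and Shh, were read next. Over 16 clusters of dual-enSERT-1 Hoxa13 ran from 2.14 to 230.3 CPM and Hoxa11 from 18.3 to 143.5 CPM. Over 10 clusters of dual-enSERT-2 they ran from 0.858 to 89.4 CPM and from 39.2 to 129.4 CPM. Hoxa10 ran only from 211.2 to 397.9 CPM and from 175.2 to 355.2 CPM. As a description over clusters of 1 embryo, which share a library and a clustering, Spearman's rho of Hottip with Hoxa13 was 0.94 and 0.90 and of Evx1os with Hoxa13 0.96 and 0.90. That of Hoxa11 with Hoxa13 was -0.08 and 0.03, with clusters low in both genes as well as clusters high in 1. The clusters with most Hoxa13 in dual-enSERT-1, at 182.7 to 230.3 CPM, were the 3 with 18.3 to 22.9 CPM of Hoxa11. In dual-enSERT-2 the cluster with most Hoxa13, at 89.4 CPM, held 100.4 CPM of Hoxa11.

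Other genes of the locus were read from a fixed list of 17: the rest of the HoxA cluster and its neighbours. In Hoxd13-only over Meis-only cells 5 and 6 of them were measured, 3 were higher in each library and none lower, where 2.21% and 1.22% of all measured genes were higher. All 3 lie beyond Hoxa13, and Evx1 and Jazf1 reached 20 CPM only in the Hoxd13-only cells, so the count is partly set by the filter. Evx1, the homeobox gene opposite Evx1os, rose from 1.21 to 23.2 CPM and from 0.786 to 20.04 CPM. Hibadh, a mitochondrial enzyme of valine breakdown, rose from 32.9 to 116.7 CPM and from 22.3 to 69.3 CPM. Jazf1, a zinc finger gene, rose from 9.28 to 38.5 CPM and from 5.38 to 24.5 CPM. Tax1bp1, an autophagy adaptor that lies among them, stood at log2 ratios of 0.75 and 0.55. On the other side Hoxa7 stood at -0.43 and -0.07, and Hoxa5, measured in dual-enSERT-2 alone, at 0.56 (17.7 against 26.5 CPM).

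Of 12 paralogues of groups 9 to 13, 8 were measured. In dual-enSERT-1 the HoxD genes Hoxd10, Hoxd11, Hoxd12 and Hoxd13 were higher in Hoxd13-only cells and Hoxd9, Hoxc10 and Hoxc11 lower. In dual-enSERT-2 Hoxd11, Hoxd12 and Hoxd13 were higher and Hoxd9 lower. The medians were 0.20 and 0.42, and Hoxd13 was part of the gate. Hoxc11, the paralogue of Hoxa11, was also lower in Hoxd13-only cells of dual-enSERT-1 alone. It stood at 82.8 and 53.0 CPM in Meis-only cells and at 18.4 and 54.9 CPM in Hoxd13-only cells. Hoxc10 was likewise lower in Hoxd13-only cells of dual-enSERT-1 (146.4 against 55.1 CPM) and not of dual-enSERT-2 (122 against 169.1 CPM).

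Among 14 cofactors and regulators of Hox genes, 14 and 13 were measured, and 1 was higher in each library. Cyp26b1, which breaks down retinoic acid, was higher at log2 ratios of 1.76 and 1.34. Zbtb16, a repressor of Hox genes (-3.40 and -1.75), and Meis1 and Meis2, which set the gate, were among the lower ones. Wdr5, the partner described for HOTTIP, stood at 0.25 and 0.08, and the Polycomb genes Ezh2, Eed and Suz12 between -0.04 and 0.17 in both libraries. Of 8 genes linked to HOX13 factors in the autopod, 6 and 5 were measured. Sall1 (2.05 and 2.35) and Sall3 (2.51 and 1.44), zinc finger genes of the distal bud, were higher in both libraries, and Epha7, an ephrin receptor, was lower (-3.12 and -1.53). Bmp7, a signalling ligand, was higher in dual-enSERT-1 alone (1.70, against 0.21), and Aldh1a2, which makes retinoic acid, lower there (-1.14).

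The genes most like a member were taken as those with the largest contrast, in the same direction in both libraries, between Prrx1-positive cells with and without its UMI. For Hoxa13, over 4710 ranked genes, these were Tfap2b (log2 ratio 2.19 and 2.39), Evx1os (2.01 and 2.33), Lmo2 (1.97 and 2.26), Hoxd13 (1.94 and 2.26) and 9530018H14Rik (1.89 and 2.40) among the higher ones. Evx1os is another of the 7. The most opposed were Meis1 (-3.42 and -3.28), Pkdcc, Meis2, Nrk and Tbx18. For Hottip, over 4153 genes and only 22 positive cells in dual-enSERT-2, they were Tfap2b, Evx1os, Shh (1.55 and 2.21), Lmo2 and Hoxd13, and on the opposed side Meis2, Cxcl12, Meis1, Pkdcc and Runx1t1. A gene was ranked when it reached 20 CPM in either cell group of each library. In both libraries Evx1os, Lmo2 and 9530018H14Rik for Hoxa13 and Shh for Hottip reached it only in the positive cells. Meis1, Pkdcc, Nrk and Tbx18 for Hoxa13 and Meis2, Cxcl12, Meis1 and Pkdcc for Hottip reached it only in the negative cells. The rest, except Hoxd13 for Hottip, were under it on 1 side in 1 library. The places of all but that gene are thus partly set by the filter.

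For Hoxa11, over 3151 genes, the contrasts were small. The gene most like it was its own antisense gene Hoxa11os (0.36 and 0.35), followed by Grem1 (0.29 and 0.32), a BMP antagonist, Rnf220, Hoxc11 (0.70 and 0.28) and Tox3. The most opposed were Bmpr1b (-0.81 and -0.78), a BMP receptor of early cartilage, Pkdcc, Kcnd2, Tbx18 and Ror1. Hoxa11os, over 4890 genes, went with Sall1 (0.89 and 0.81), Hoxa13 (0.89 and 0.81), Hoxd13, Hey1 and Hoxd12 and against Ror1 (-2.10 and -1.37), Pkdcc, Nrk, Meis1 and Eya4. By this measure Hoxa11os resembled the distal genes more than Hoxa11 did. Pkdcc reached 20 CPM only in the cells without Hoxa11os, so its place there is partly set by that filter. Some of the other genes were under 20 CPM on 1 side in 1 library.

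Cells of the skeletal and connective tissue lineages were read by single marker UMIs. Osr1, a gene of connective tissue progenitors, was detected in 1263 and 86 cells. Hoxa13 stood in them at 9.68 and 2.94 CPM, against 91.2 and 26.9 CPM in the others. Hoxa11os was lower with Osr1 in dual-enSERT-1 (93.3 against 203.8 CPM) and Hoxa11 was near its level in the others (81.1 against 74.2 CPM). Of the measured members 3 of 6 were lower in dual-enSERT-1, Hoxa13, Evx1os and Hoxa11os, where 2.7% of genes were called, and 1 of 5 in dual-enSERT-2, Hoxa13, where 1.43% were. Hoxa13, and Evx1os where called, were under 20 CPM in the cells with Osr1, so these counts are partly set by that filter. Osr1-positive cells were thus low in Hoxa13 in both libraries. Of them 776 and 66 were Meis-only cells, in which Hoxa13 stood at 4.96 against 13.2 CPM and 1.17 against 4.95 CPM with and without Osr1. The 23 Osr1-positive cells among the Hoxd13-only cells of dual-enSERT-1 held Hoxa11 at 60.9 against 26.9 CPM in the rest of that group (log2 ratio 1.15, 0.52 to 1.72). They held Hoxa13 at 71.0 against 197.1 CPM (-1.46, -2.04 to -0.93) and Hottip at 10.2 against 23.7 CPM (-1.15, -2.72 to 0.13). The share of all genes past 1 is not given for these few cells. The values therefore cannot be read as particular to the members. In dual-enSERT-2 there were fewer than 20 such cells, and they were not compared.

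With Scx, which marks tendon progenitors, Hoxa13 stood at 36.4 against 102.4 CPM and 10.6 against 28.1 CPM, a log2 ratio of -1.47 and -1.33, where 0.871% and 0.469% of genes were called. Evx1os was called lower as well in dual-enSERT-1, at 7.5 against 30.2 CPM. With Sox9, the cartilage regulator, Hoxa13 stood at 65.8 against 97.9 CPM (-0.56) and at 8.57 against 32.9 CPM (-1.82), so that it passed the fold in dual-enSERT-2 alone, where 0.455% of genes were called. Evx1os passed it in dual-enSERT-1 (13.7 against 31.7 CPM, 1.42% called). Within Hoxd13-only cells of dual-enSERT-1 no member was called by Sox9 (0.557% of genes), and Hoxa13 stood at 206.7 CPM with and 190.9 CPM without it. In dual-enSERT-2 Evx1os was called lower there, at 8.58 against 23.3 CPM with 33 Sox9-positive cells (1.17% of genes called). Within Meis-only cells Hoxa11 was lower with Sox9 in both libraries, at 53.4 against 81.2 CPM and 64.6 against 83.1 CPM, under a log2 ratio of 1. Where Evx1os was called by Scx or Sox9, it was under 20 CPM in the marker-positive cells. So was Hoxa13 in dual-enSERT-2, and these calls are partly set by that filter.

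The reporters were read by their UMIs in the same way. In cells with mCherry, driven by the reference ZRS, Hoxa13 stood at 155.6 CPM against 63.4 CPM in cells without either reporter and at 55.7 against 22.9 CPM, a log2 ratio of 1.28 and 1.25. It was called in both libraries, where 1.79% and 0.612% of genes were, and Evx1os was also called in dual-enSERT-1 (52.0 against 16.7 CPM). Evx1os reached 20 CPM only in the mCherry cells, so its call is partly set by that filter. In cells with eGFP alone no member was called (0.0698% and 0.285% of genes), and Hoxa13 stood at 112.8 and 36.5 CPM. Within Hoxd13-only cells none was called for mCherry (0.518% and 0.888%), with Hoxa13 at 207.1 against 192.8 CPM and 101.4 against 99.8 CPM. The reporter cells thus differed in Hoxa13 little within the distal group.

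Between the libraries, the log2 ratios of dual-enSERT-2 over dual-enSERT-1 in Prrx1-positive mesenchyme were 0.05 for Hoxa9 and for Hoxa10, 0.34 for Hoxa11, -0.45 for Hoxa11os, -1.63 for Hoxa13, -2.001 for Evx1os and -2.06 for Hottip. The median of all genes was 0.007, and 90% of genes lay between -0.62 and 0.46. Of 6 measured members 2, Hoxa13 and Evx1os, were lower past 1, where 2.42% of genes were called. Hottip was under 20 CPM in both libraries. Evx1os, at 23.8 and 5.20 CPM, reached 20 CPM only in dual-enSERT-1, so the count is partly set by that filter. Hoxd13 stood at -1.61, close to Hoxa13. In erythroid-like cells, whose counts reflect free RNA, Hoxa13 stood at 3.22 and 0.549 CPM and Hoxa11 at 1.41 CPM in both libraries.

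Within the groups the ratios changed. For Hoxa13 it was -1.08 in Meis-only, -1.19 in neither-marker and -0.95 in Hoxd13-only cells, smaller than over all mesenchyme in each and short of 1 in the last. For Hoxa11 it was 0.17 in Meis-only cells, 0.13 in cells with neither marker and 1.65 in Hoxd13-only cells. In Meis-only and neither-marker cells, where 4.37% and 2.76% of genes were called, no measured member was past 1 in the former and Hoxa13 alone in the latter. Hoxa13 was under 20 CPM in the Meis-only cells. In Hoxd13-only cells, where 2.26% of genes were called, 3 of 7 measured members were past 1: Hoxa11 higher and Hottip (-1.67) and Evx1os (-1.505) lower. Hoxa9 (-0.08) and Hoxa10 (0.18) stayed close to 0 there. Hottip, at 23.6 and 6.73 CPM in these cells, reached 20 CPM only in dual-enSERT-1, so the count of members is partly set by that filter. In cells with exactly 1 Hoxa13 UMI, a comparison chosen after the values were seen, the ratio was 1.09 for Hoxa11 and -0.61 for Hoxa13. In the Hoxd13-only cells Hoxd13 itself was 0.583-fold (0.549 to 0.619), and the part of that difference was not tested.

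**Figure D5:**
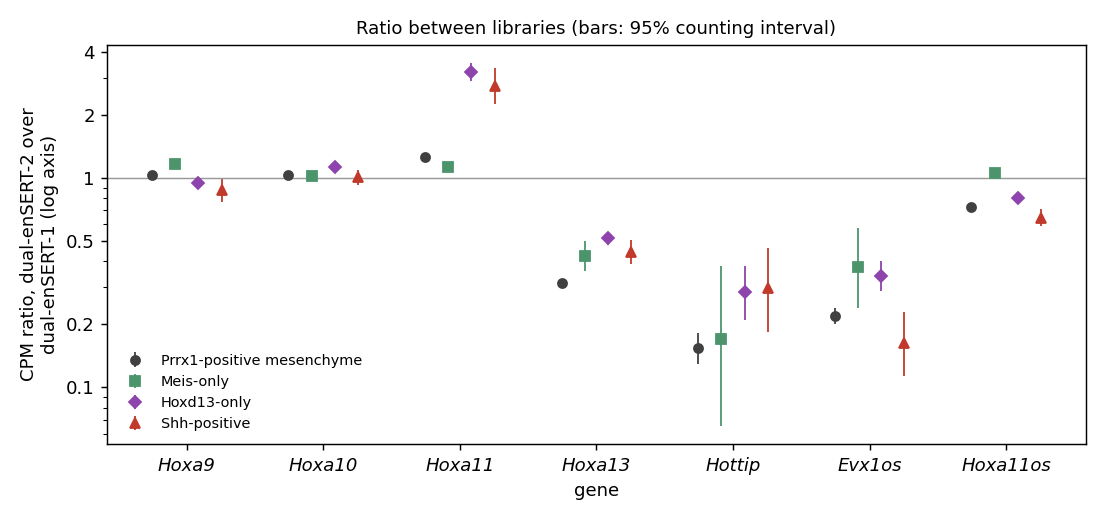
CPM ratio of dual-enSERT-2 over dual-enSERT-1 (log axis) for each gene in Prrx1-positive mesenchyme and in 3 of its groups, with bars for 95% counting intervals. Hoxa9 and Hoxa10 lie near 1, Hoxa13, Hottip and Evx1os below it, and Hoxa11 above 1 by 3.23-fold in Hoxd13-only cells.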

How the data were processed

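Single-cell gene expression was measured in 2 hindlimb libraries of embryonic day 11.5, 1 in each group. The deposited tables hold raw UMI counts, whole numbers for each gene in each barcode. Cell Ranger 7.0.1 made them per the file headers. The submitters' processing notes list Cell Ranger 3.1.0, Seurat 4 and the build mm39 instead. Which annotation release was used, and whether introns and strand counted, is not given in the sources used here. Of 56982 feature IDs, 56236 were found in GENCODE M39.

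A minimum of 1000 genes removed 2593 and 1502 barcodes, and a mitochondrial share above 10% removed a further 125 and 700. Scrublet, with an expected rate of 8%, removed 1749 (9.83%) and 211 (3.16%) doublets. The total depth was 298653282 and 184301053 UMIs. Each library was clustered alone without the 7 genes, eGFP, mCherry and Shh (counts scaled to 10000, log-transformed, 2000 variable genes, 30 components, 15 neighbours, Leiden resolution 1). A cluster was named for a class when 3 or more of its markers stood 2-fold above their level in other clusters (for mesenchyme, in the clusters named for other classes) and were seen in 10% of cells. Clusters whose median depth was under 1/3 of the library's, with no marker of the class among their 10 leading genes, stayed unnamed.

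CPM were computed from the deposited counts, pooled over cells, with exact Poisson intervals. Ratios have exact conditional binomial intervals and shares exact Clopper-Pearson intervals, all at 95% and for counting error only. Detection was read in cells thinned to 5000 UMIs, and shallower cells were left out (101 and 42 of the Prrx1-positive mesenchyme). Log2 ratios use a pseudocount of 1 CPM. A gene counts as measured at 20 CPM in either cell group, and groups under 20 cells were not compared. The call of a gene that is under 20 CPM in 1 of the groups is therefore partly set by that filter. A count of 0 is given with its upper bound. The functions were tested on simulated data.

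The named genes are the 7 members, 4 fixed lists of the HoxA region, paralogues, cofactors and genes linked to HOX13, with values for those of at least 20 CPM, and the 5 genes in each direction most like Hoxa13, Hoxa11, Hoxa11os and Hottip, ranked by the smaller absolute log2 ratio of the libraries. Some listed genes are not reported here. The members and lists were chosen with earlier results of these data known. Alternatives changed the gene minimum, doublet removal, clustering genes, the Prrx1 requirement, thinning, the detection threshold and the scaling between libraries. Clustering ran in Scanpy 1.11.5 with leidenalg 0.10.2 on igraph 0.11.9 and scikit-learn 1.9.0. Intervals came from SciPy 1.17.1. NumPy 2.4.6, pandas 2.3.3 and matplotlib 3.10.9 were used under Python 3.11.15.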

Additional observations from a re-analysis of the deposited data

Results flagged for a closer look

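In 3 readings Hoxa11 was lower with the distal marker in dual-enSERT-1, while the value of dual-enSERT-2 lay on the other side of no difference. The difference between the libraries was not tested, as each group holds 1 library. The log2 ratio of Hoxa11 in Hoxd13-only over Meis-only cells was -1.29 in dual-enSERT-1, against 0.19 in the other library. That of cells with over cells without Hoxa13 was -1.15 and 0.04. The observed over expected share of cells with both Hoxa11 and Hoxa13 was 0.594 and 1.07. In the last 2 readings the interval of dual-enSERT-2 includes no difference, and the sign of its first changes with detection at 2 UMIs.

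Shallow cells that were given no class, 1542 and 657 in number with median depths of 2990 and 5056 UMIs, held Hoxa13 at 135 CPM (126 to 146) in dual-enSERT-1, against 14.7 CPM (11.1 to 19.1) in the other library. The upper bounds in erythroid-like cells were 5.23 and 0.811 CPM. In dual-enSERT-1 the level was above that of mesenchyme as a whole, while Hoxa9 (73.4 CPM) and Hoxa11 (45.2 CPM) were below it. These cells entered no comparison.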

How the results depend on the processing

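No paired analysis was possible because each group holds 1 library. Of the main results recomputed under the alternatives, 84 values moved by less than their interval, 34 moved by more and 0 called values changed direction. For single genes these numbers were 202 and 53. The co-detection ratio of Hoxa11 and Hoxa13 in dual-enSERT-1 was 0.517 and 0.658 with thinning to 2000 and 10000 UMIs, 0.275 with detection at 2 UMIs and 0.804 within Hoxd13-only cells, where dual-enSERT-2 gave 0.756. The Hoxa11 log2 ratio by Hoxa13 detection in dual-enSERT-1 was -0.98 with doublets kept, -1.05 at 10000 UMIs, -1.45 at 2 UMIs and -0.94 within Hoxd13-only cells. In dual-enSERT-2 it was 0.16 at 2000 UMIs and -0.48 within Hoxd13-only cells. The Hoxa11 log2 ratio of Hoxd13-only over Meis-only cells in dual-enSERT-1 was -1.05 with doublets kept, -1.77 at 2 UMIs and -0.94 with Meis1 alone as the proximal marker, under the fold of 1 in that case. In dual-enSERT-2 it was 0.42 at 2000 UMIs, 0.47 with Meis1 alone and -0.081 at 2 UMIs, so its sign is not settled. Shh-positive over Hoxd13-only, Hoxa11 was 0.59 at 2000 UMIs in dual-enSERT-1, and 0.19 with doublets kept and 0.25 at 2 UMIs in dual-enSERT-2. Hoxa13 of Hoxd13-only over Meis-only cells in dual-enSERT-1 was 3.19 with doublets kept, 4.17 and 3.77 at 2000 and 10000 UMIs, 5.04 at 2 UMIs, 4.60 with Meis1 alone and 3.79 in another thinning draw. In dual-enSERT-2 it was 4.44 with a minimum of 2000 genes and 4.93 at 2 UMIs. Between libraries Hoxa11 was 0.17, 1.65 and 1.09 and Hoxa13 -1.08, -0.95 and -0.61 within Meis-only cells, Hoxd13-only cells and cells of exactly 1 Hoxa13 UMI. Apart from settings that change the cells by construction, the cause of these moves was not tested. Scaling by the median ratio shifted the ratios between libraries by 0.01 on the log2 scale. Class levels of at least 5 CPM were recomputed with the other gene minimum, doublets kept and the other clustering genes, 105 values in all. Of these values 9 moved by over 1.5 times, all of them among those with doublets kept. The largest move was for Hoxa10 in erythroid-like cells of dual-enSERT-1 (55.5 against 5.83 CPM). Within Hoxd13-only cells, Meis1 alone, exactly 1 Hoxa13 UMI and the other draw were chosen after seeing the data.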
